A study of Homo sapiens with 20 samples.

Results

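*TMEM176A* and *TMEM176B* were followed across the 20 RNA-seq libraries of a study of the m6A demethylase ALKBH5 in human pancreatic differentiation. The 2 members were the rows whose Ensembl identifiers map to these symbols (ENSG00000002933 and ENSG00000106565), out of 60624 identifiers in the hILO tables and 60623 in the PP tables. They were chosen by their TPM in hILOs, where their transcripts were nearly lost without *ALKBH5*, and this loss was to be set against the PP stage, so their genotype differences at both stages are given as a description, with no test. All cells derived from MEL1 INS GFP/W, a reporter version of the established human embryonic stem cell line MEL1 with GFP at the insulin locus, and they were either wild type (WT) or homozygous for a CRISPR-Cpf1 disruption of *ALKBH5* (A5-KO). The A5-KO cells come from a picked line, so genotype and line cannot be told apart. Human islet-like organoids (hILOs) gave 2 WT and 2 A5-KO libraries. Pancreatic progenitors (PPs), the stage from which hILOs are made, were treated with actinomycin D, a transcription inhibitor, at 1 μg/ml for 0, 1, 2 or 3 h, which gave 16 libraries, 2 at every time from either genotype. Nothing in the labels says that replicates came from separate differentiations, so *p*-values measure the spread between these libraries, which may be technical.

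TMEM176A and TMEM176B are small proteins with several membrane-spanning segments that belong to the MS4A-related family. They reside in endolysosomal membranes, act as cation channels, and are best known from dendritic cells, where they take part in antigen presentation by MHC class II and restrain the NLRP3 inflammasome, and from some lymphoid cells. The 2 genes lie side by side and are often expressed together.

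In the GENCODE annotation of GRCh38, *TMEM176A* occupies chr7:150800403-150805118 on the plus strand and *TMEM176B* chr7:150791285-150801360 on the minus strand. Their bodies overlap by 958 bases at their 5′ ends, but no exon base is shared in this annotation. The annotation and strand setting used for the PP values are not given. Whether reads of either gene were counted for the other was therefore not checked. The RefSeq promoter windows of 300 bases (GRCh38.p14, 250 bases before to 50 after the start) are shown because they place both starts in the same GC-rich stretch. The *TMEM176A* window is chr7:150800519-150800818 on the plus strand, and the *TMEM176B* window is chr7:150800315-150800614 on the minus strand, for 1 of the 2 starts the table gives for *TMEM176B*. Each is written 5′ to 3′ on its own strand, and capitals mark the 96 bases that the 2 windows share on opposite strands.
TMEM176A: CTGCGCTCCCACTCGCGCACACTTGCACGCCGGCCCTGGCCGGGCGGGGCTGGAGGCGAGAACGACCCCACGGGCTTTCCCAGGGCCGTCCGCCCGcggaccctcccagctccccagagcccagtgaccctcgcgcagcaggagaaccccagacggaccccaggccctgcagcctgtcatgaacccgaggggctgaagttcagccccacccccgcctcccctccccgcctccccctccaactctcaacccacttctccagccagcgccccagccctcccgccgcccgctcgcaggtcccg
TMEM176B: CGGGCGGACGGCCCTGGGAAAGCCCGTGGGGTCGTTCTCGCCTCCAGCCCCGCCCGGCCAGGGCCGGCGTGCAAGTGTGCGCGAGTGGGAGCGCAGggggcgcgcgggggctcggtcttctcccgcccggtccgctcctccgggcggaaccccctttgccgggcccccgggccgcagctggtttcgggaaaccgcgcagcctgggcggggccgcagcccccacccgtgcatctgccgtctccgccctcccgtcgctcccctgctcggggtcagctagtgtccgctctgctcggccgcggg
The 2 start sites lie 405 bases apart and face away from each other. GC content was 74.0% in the *TMEM176A* window and 77.7% in the *TMEM176B* window, above 88.5% and 94.6% of the 35116 RefSeq windows, whose median was 58.7%. The *TMEM176A* window held 26 CG dinucleotides and the *TMEM176B* window 40, beside a median of 14. On both strands, GGGCGG occurred 3 times in the *TMEM176A* window and 6 times in that of *TMEM176B*, while 45.0% of all windows held it at least once. Neither window held CCAAT or TATAAA, which 34.6% and 11.5% of all windows contained.

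*ALKBH5*, the targeted gene, gave 78.8 and 81.9 TPM in WT hILOs and 4.16 and 3.42 TPM in A5-KO hILOs, and 28087 reads in the 8 WT PP libraries against 3115 in the 8 A5-KO PP libraries. The libraries thus matched their labels at both stages. PP libraries held between 30516384 and 35206514 reads, while TPM keeps no depth, so the counting error of hILO values cannot be given. The hormone genes *INS*, *GCG* and *SST* reached means of 13005, 2231 and 374 TPM in WT hILOs. Defining markers of the labelled tissue were thus present.

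In WT hILOs both members were abundant. *TMEM176A* was measured at 113 and 105 TPM, higher than 97.7% and 97.5% of all listed genes, and *TMEM176B* at 81.7 and 87.9 TPM, higher than 96.8% and 97.0%. On this scale, which is per transcript length, *TMEM176A* exceeded *TMEM176B* 1.38-fold and 1.19-fold in the 2 libraries.

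In A5-KO hILOs the transcripts were nearly gone. *TMEM176A* was at 0.175 and 0.424 TPM and *TMEM176B* at 0.746 and 1.54 TPM, so that for neither gene did the genotypes come near to overlapping. *TMEM176A* averaged 109 ± 5.76 TPM in WT hILOs but 0.299 ± 0.177 TPM without *ALKBH5* (mean ± s.d., *n* = 2), which left 0.275% of the WT level, a 364-fold difference of means. *TMEM176B* averaged 84.8 ± 4.38 TPM against 1.14 ± 0.561 TPM (*n* = 2), or 1.35% of the WT level and a 74.2-fold difference. Taking single libraries against each other, the fold ran from 247 to 647 for *TMEM176A* and from 53.1 to 118 for *TMEM176B*. Within the A5-KO libraries the order of the pair was turned, with *TMEM176A* at 0.234 and 0.276 of the *TMEM176B* level. In bulk samples, fewer cells that express the pair and less RNA in each such cell cannot be told apart.

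**Figure D1:**
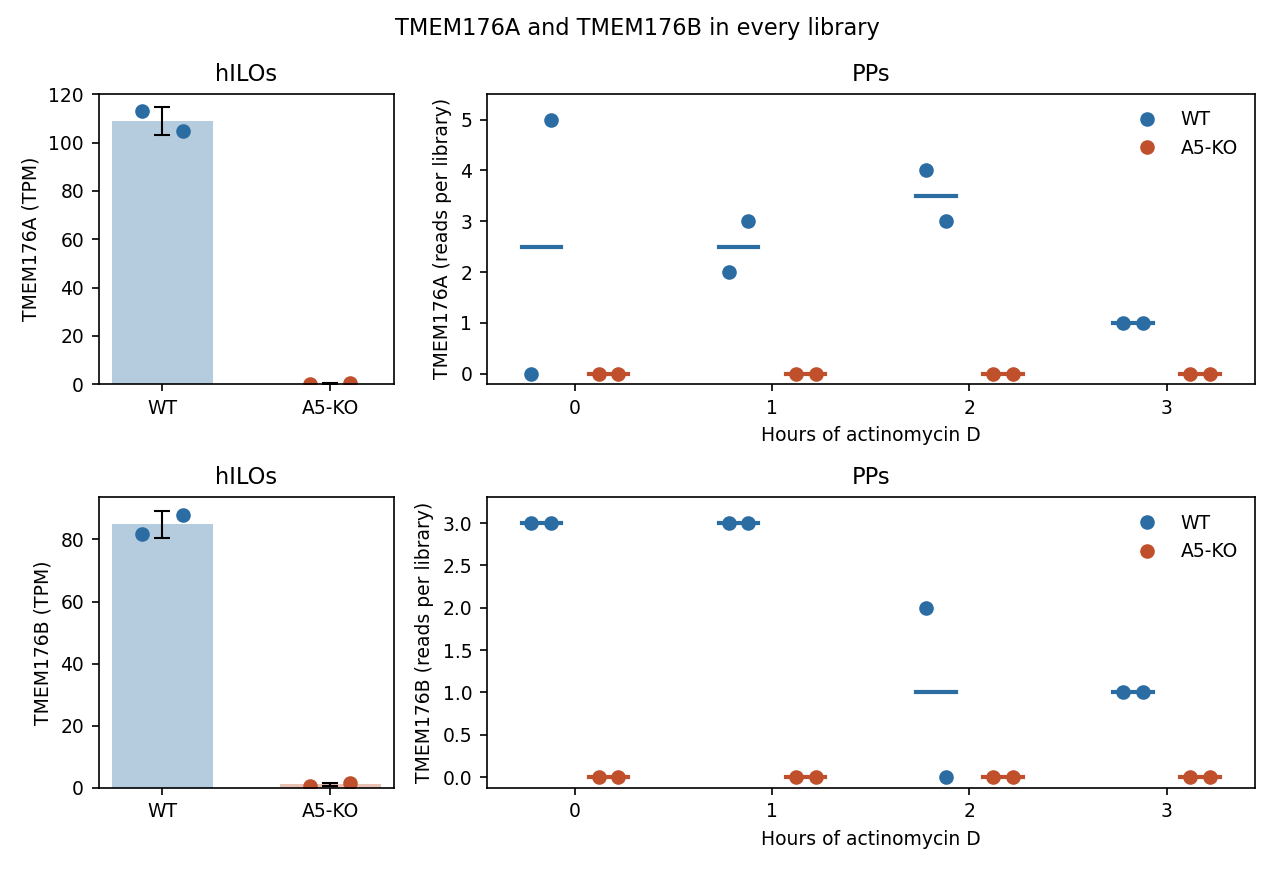
*TMEM176A* (top) and *TMEM176B* (bottom) in every library, WT in blue and A5-KO in orange. Left, hILO levels in TPM with bars for the mean and error bars for the s.d. of 2 libraries. Right, reads per PP library by hours of actinomycin D with short lines for the mean. WT hILOs lie between 81.7 and 113 TPM and A5-KO hILOs at or under 1.54 TPM, while WT PPs hold 0 to 5 reads and all 8 A5-KO PP libraries 0.

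In PPs the pair was almost undetected, and what was detected came from WT cells. Per WT library, *TMEM176A* had 0 and 5 reads before actinomycin D (0 h), then 2 and 3 after 1 h, 4 and 3 after 2 h, and a single read in each after 3 h. *TMEM176B* had 3 reads in each of the 4 WT libraries of 0 and 1 h, 2 and 0 reads after 2 h, and a single read in each after 3 h. Each member was therefore read in 7 of the 8 WT libraries, and in none of the 8 A5-KO libraries. As background, 2.47% of the 3887 genes with 10 to 30 reads in the WT PP libraries likewise had 0 reads in all 8 A5-KO PP libraries.

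Over the 8 WT PP libraries, 19 reads of *TMEM176A* (95% exact Poisson interval 11.4 to 29.7, counting error only) out of 262815977 made 0.0723 CPM. *TMEM176B* gave 16 reads (interval 9.15 to 26.0), or 0.0609 CPM. In A5-KO, 0 of 267104475 reads allows up to 0.0112 CPM for either gene, taking 3 reads over the group as the limit. The pooled WT values were 6.44-fold (*TMEM176A*) and 5.42-fold (*TMEM176B*) above that limit. These folds take the WT totals as they stand, and the lower ends of the WT intervals would give smaller ones.

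The pair entered none of the planned main PP fits, since its mean was under 1 CPM at every time. Alternative fits without that filter, and the edgeR fit added later, did include it. No test of its genotype difference in PPs is given, since any low filter would be passed through the WT reads alone.

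How fast the transcripts decayed after transcription was blocked could not be determined at this depth. In WT PPs, the 2 libraries of each time together held 5, 5, 7 and 2 *TMEM176A* reads at 0, 1, 2 and 3 h, and 6, 6, 2 and 2 *TMEM176B* reads. The share of reads at 3 h was 0.412 of that at 0 h for *TMEM176A* (95% interval 0.0392 to 2.52) and 0.343 for *TMEM176B* (0.0339 to 1.92), intervals that cover both a large loss and a gain. With 0 reads in A5-KO, no A5-KO decay exists to set beside it.

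From WT PPs to WT hILOs the pair went from a few reads to a level among the upper genes of the organoids, although the stages were normalised separately and no test was made across them. Many genes share that history. Among protein-coding genes, 745 had a mean of at least 10 TPM in WT hILOs and stayed under 1 CPM in each of the 16 PP libraries. *TMEM176A* ranked 124 and *TMEM176B* 166 among them by WT level. In A5-KO hILOs the median of these 745 genes was 97.0% of the WT level, and the middle part of the distribution, from the 25th to the 75th percentile, ran from 83.5% to 112%. Only 30 were under 50% and 3 under 10%, namely *TMEM176A*, *TMEM176B* and *MT1H*, a metallothionein with near-identical copies among which reads may have been split. Most genes that were off in PPs thus reached similar levels in hILOs of both genotypes, and the pair, chosen by this contrast, did not.

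Counting genes of any type or PP level, 11 had a mean of at least 10 TPM in WT hILOs and at most 1 TPM in each A5-KO library. *TMEM176A* had the highest WT level of the 11. It was followed by *TNFSF9* (54.6 TPM in WT), which encodes the ligand of 4-1BB, then *MT1H* (37.2 TPM), *CTHRC1* (24.3 TPM), a secreted collagen-associated protein, and the microRNA gene *MIR3615*, whose WT libraries read 0 and 40.1 TPM. *TMEM176B* fell just outside this count, through its 1.54 TPM in A5-KO replicate 2. Unlike the pair, *TNFSF9* was already expressed in WT PPs, at 56.5 CPM at 0 h against 0.0919 CPM in A5-KO.

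The genes around the pair were examined to see whether the difference extended along chromosome 7. Of 55 other genes annotated within 500 kb, 24 reached a mean of 1 TPM in hILOs and were tested (limma on log2(TPM + 1), adjusted *p* below 0.05 and over 1.5-fold). A single one was lower in A5-KO and none was higher, beside 4.09% lower and 2.70% higher among all 17300 genes tested, so the share near the pair was close to that of the genome. Their median log2 difference was −0.07, as against −0.06 over all genes.

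The gene that fell was *RARRES2*, which encodes the adipokine chemerin and lies 449.6 kb from the pair. WT hILOs held 62.8 and 56.0 TPM, and A5-KO hILOs 28.2 and 30.9 TPM, a log2 difference of −0.98 ± 0.09 (limma, s.e.; adjusted *p* = 0.0105). The call was lost when any 1 of the 4 libraries was left out, with adjusted *p* from 0.0548 to 0.0632. In PPs at 0 h it read 6.75 and 6.44 CPM in WT and 3.31 and 4.07 CPM in A5-KO, which did not pass (log2 difference −0.70 ± 0.17, adjusted *p* = 0.0547).

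*AOC1*, which encodes diamine oxidase, the enzyme that degrades histamine outside cells, is the next protein-coding gene, 19.5 kb beyond the end of *TMEM176A* at chr7:150824627-150861504 on the plus strand. In hILOs it hardly differed. WT libraries gave 184 and 180 TPM and A5-KO libraries 162 and 158 TPM, 87.8% of the WT level, with a log2 difference of −0.19 ± 0.04 that did not pass (limma adjusted *p* = 0.0521). The WT values did not overlap those of A5-KO and were higher, as for 37.1% of genes tested.

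In PPs *AOC1* was far apart between the genotypes. WT libraries held 36 and 56 reads before actinomycin D, 91 and 65 after 1 h, 46 and 24 after 2 h, then 15 and 6 after 3 h. In A5-KO, 6 of the 8 libraries held 0 reads, and the others held 1 read at 0 h and 8 reads at 2 h. The totals of 339 and 9 reads made 1.29 and 0.0337 CPM, a 38.3-fold difference. An edgeR quasi-likelihood fit was made to the reads of all 16 PP libraries, for genes with at least 10 reads in all. *AOC1* entered it through its WT reads, since its A5-KO reads alone would not have passed that filter. Its *p*-value is therefore not given, as for the pair. The fitted log2 difference averaged over the 4 times was −6.27, and it stayed between −7.56 and −6.04 with each library left out. This average of log2 differences is another measure than the fold of the pooled totals. *AOC1* lay under the 1 CPM filter of the planned PP fits. *AOC1* and the pair were thus both lower in A5-KO PPs, whereas in hILOs *AOC1* was near the WT level and the pair was not. The difference between stages was not tested.

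**Figure D2:**
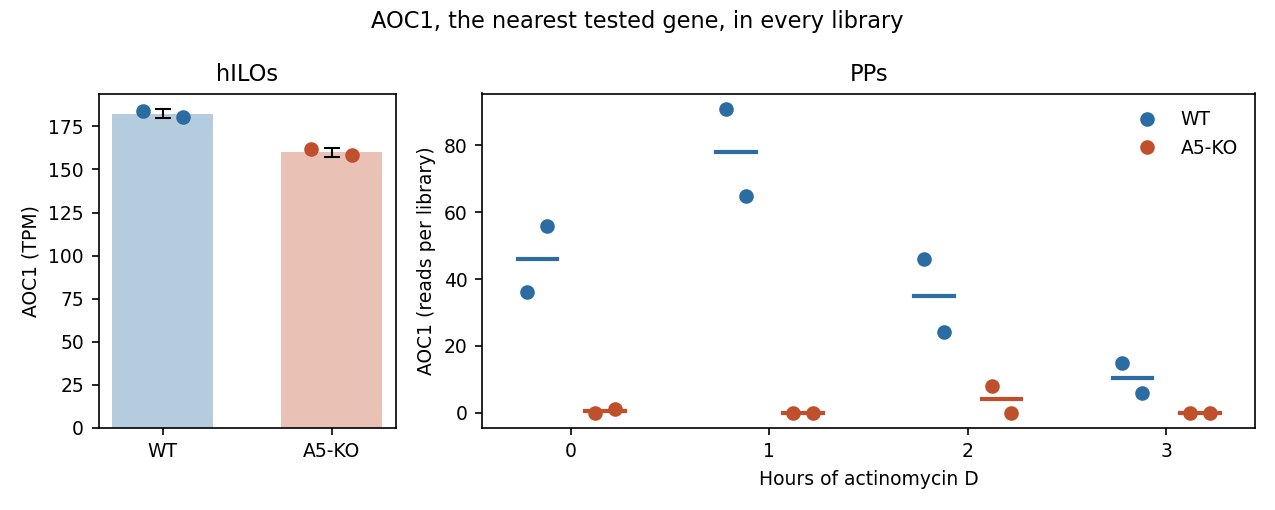
*AOC1*, WT in blue and A5-KO in orange. Left, hILO levels in TPM, with bars for the mean and error bars for the s.d. of 2 libraries. Right, reads per PP library by hours of actinomycin D, with short lines for the mean. hILO levels lie between 158 and 184 TPM in both genotypes, while WT PPs hold 6 to 91 reads and A5-KO PPs 0 to 8.

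On the other side of the pair lies the GIMAP cluster of immune-associated GTPases. All 9 of its annotated genes within 500 kb were listed at 0 in every hILO and PP library, so they were not tested. They include the pseudogene *GIMAP3P* and the joint entry *GIMAP1-GIMAP5*. Whether these zeros reflect expression or counting is not known. Among the 17 neighbours tested in PPs at 0 h, none passed limma in either direction, beside 1.13% lower and 1.57% higher among 13911 genes. In that fit, 4 neighbours had an unadjusted *p* below 0.05. With median-of-ratios scaling, quantile normalization or no filter on low values, limma called 1 neighbour as lower, and with a replicate block 2. EdgeR and DESeq2 on the recovered reads each called 1, *RARRES2*, as lower. The 3 with the highest level there were *REPIN1* (138 ± 1.48 CPM in WT, 143 ± 14.1 in A5-KO), *SLC4A2* (110 ± 0.559 and 102 ± 2.57) and *CHPF2* (93.9 ± 3.30 and 80.1 ± 1.13; *n* = 2 each), which encode a DNA-binding zinc-finger protein, an anion exchanger and a chondroitin-polymerising factor.

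Over the 4 PP times, 28 neighbours entered the edgeR fit. Of these, 2 were lower, *AOC1*, which entered through its WT reads, and *ZNF775*. None was higher, beside 2.73% lower and 2.34% higher among 25516 genes. *ZNF775*, a zinc-finger gene 392.7 kb away (edgeR log2 difference −0.68, adjusted *p* = 0.000512), did not differ at 0 h (log2 difference −0.01) and was lower at 2 h (−0.93, limma adjusted *p* = 0.0216) and 3 h (−1.10, adjusted *p* = 0.00264), where *LRRC61* was lower as well (−0.69, adjusted *p* = 0.00610). With 1 library left out, the *ZNF775* call at 2 h held only without WT replicate 1 (adjusted *p* 0.00438 to 0.196 over the 4 fits), and that at 3 h was lost without A5-KO replicate 2 (0.0555). No neighbour passed at 1 h. At 1, 2 and 3 h, 1.15%, 4.24% and 17.7% of the 13620 genes tested were lower in A5-KO, and 2.94%, 2.66% and 1.15% were higher. The slope of *ZNF775* over the hours of actinomycin D was steeper in A5-KO by 0.58 log2 units per h (limma adjusted *p* = 0.0465), a call kept in 2 of 16 fits without 1 library, beside 2.61% of genes with a lower and 0.0661% with a higher slope.

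None of the tested relatives and partners of the pair came near its loss in hILOs. Of the 16 listed genes of the MS4A family, to which the pair is related, 3 were tested in hILOs, and 2 of them rose in A5-KO, beside 2.70% of all 17300 genes tested. *MS4A18* went from 22.8 and 23.6 TPM to 61.2 and 61.5 TPM (log2 difference 1.36 ± 0.06, limma adjusted *p* = 0.00290). *MS4A8* went from 20.0 and 19.6 TPM to 38.7 and 36.8 TPM (0.90 ± 0.07, adjusted *p* = 0.00787), although with any library left out its adjusted *p* was 0.0526 to 0.0597. In PPs *MS4A8* was again higher in A5-KO over the 4 times (edgeR log2 difference 0.99, adjusted *p* = 0.0280), at 0.433 to 1.62 CPM beside 0.114 to 0.682 CPM in WT, and this call held in 10 of 16 fits that left out a library. The third, *MS4A10*, averaged 3.66 ± 0.0309 TPM in WT hILOs and 2.42 ± 0.365 TPM without *ALKBH5* and did not pass.

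Of 15 inflammasome genes, 8 were tested in hILOs, and *PYCARD*, the ASC adaptor that joins sensor to caspase, rose from 8.64 and 7.41 TPM to 20.8 and 19.5 TPM (log2 difference 1.23 ± 0.11, limma adjusted *p* = 0.0108; 0.0539 to 0.0688 with a library left out). No other of the 8 passed, and 2.70% of all 17300 genes tested were higher. The median over the 8 was 0.13, as against −0.06 over all genes. In PPs at 0 h none of 6 passed, and the 3 with the highest level, *NEK7*, *CASP8* and *IL18*, were at 38.5, 22.7 and 5.98 CPM in WT and 41.5, 25.9 and 6.19 CPM in A5-KO. Over the 4 times, of 13 tested, *GSDMD*, the pore-forming gasdermin D, was lower (edgeR log2 difference −2.29, adjusted *p* = 0.00199), beside 2.73% of 25516 genes. This call was lost without WT replicate 1 of 2 h, and its difference ran from −3.59 to −1.46 with each library left out.

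Of 13 genes for MHC class II and endolysosomal antigen presentation, 8 were tested in hILOs and 2 passed, in opposite directions. Among all 17300 genes tested, 4.09% were lower and 2.70% higher. *CD74*, the invariant chain, rose from 157 and 159 TPM to 277 and 264 TPM (log2 difference 0.77 ± 0.04, limma adjusted *p* = 0.00419). *HLA-DRA*, the class II α chain, fell from 7.99 and 6.40 TPM to 3.53 and 2.65 TPM (−1.005 ± 0.19, adjusted *p* = 0.0468), a call lost with any library left out (0.1000 to 0.176). The median over the 8 was −0.20. In PPs at 0 h none of 5 passed. The 3 with the highest level there, *LGMN*, *HLA-DRB1* and *CD74*, were at 188, 32.2 and 28.3 CPM in WT and 172, 30.02 and 29.6 CPM in A5-KO. Of 5 tested, *HLA-DQB1* and *HLA-DRB1* were higher at 1 h, these and *CTSS* at 2 h, and none passed at 3 h (limma). Among all 13620 genes, 2.94% and 2.66% were higher at 1 and 2 h. Over the 4 times, of 10 tested, *CTSS* and *HLA-DQB1* were higher (edgeR log2 differences 0.89 and 0.95, adjusted *p* = 0.00397 and 3.32e-05), beside 2.34% of 25516 genes.

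Markers of the immune cells in which the pair is best known were mixed. Of 16 myeloid markers, 4 reached 1 TPM in hILOs, *C1QB* and *C1QC* were listed at 0 in all 4 libraries, and *PTPRC*, the pan-leukocyte gene CD45, averaged 0.0215 TPM in WT against 0.0217 TPM in A5-KO. *LYZ*, lysozyme, rose from 536 and 525 TPM to 796 and 797 TPM (log2 difference 0.59 ± 0.03, limma adjusted *p* = 0.00360), a fold at the limit that no longer passed without WT replicate 2 or A5-KO replicate 2 (0.57 and 0.58). It carried most of the summed level of this list, which ran from 570 to 581 TPM in WT hILOs and from 832 to 844 TPM in A5-KO hILOs. The other 3 myeloid markers tested did not pass, with *AIF1* at 26.3 ± 2.65 TPM in WT against 15.0 ± 5.02 TPM in A5-KO, *LAPTM5* at 14.3 ± 1.99 against 20.5 ± 2.06 TPM and *FCER1G* at 2.12 ± 1.27 against 2.68 ± 1.31 TPM (*n* = 2). Among the lymphoid markers reported here, only *AHR* and *IL1R1* reached 1 TPM and neither passed, with *AHR* at 34.4 TPM in WT against 43.8 TPM in A5-KO and *IL1R1* at 6.05 against 6.54 TPM, with *CCR6* next at 0.572 and 0.797 TPM. *IL22* and *IL7R* were listed at 0 in every hILO library. In PPs, *AHR* was lower in A5-KO at 3 h (limma, 1 of 2 tested), beside 17.7% of 13620 genes. It was also lower over the 4 times (edgeR, 1 of 6 tested), beside 2.73% of 25516 genes. That log2 difference ran from −0.71 to −0.55 with each library left out, a range that reaches under the 1.5-fold limit. The part of such cells in the difference of the pair was not tested.

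Markers of the other cell types also differed between the genotypes in hILOs, and their part in the difference of the pair was not tested. The summed level in A5-KO was 80.4% of WT for 18 endocrine markers, 83.5% for 7 enterochromaffin-like markers and 168% for 14 hepatocyte markers, with median log2 differences of −0.08, −0.30 and 0.16. The higher hepatocyte sum came largely from *TTR* (7539 against 18711 TPM), and the lower endocrine sum largely from *INS* (13005 against 7605 TPM). For 3 other lists too the sum rested largely on 1 gene. The 12 mesenchymal markers summed to 64.9% of WT, led by *VIM*, while their median log2 difference over the 6 tested was 1.28. The 13 progenitor and duct markers summed to 128%, led by *KRT19* (623 against 892 TPM, not called), with a median of −0.05. The 7 pluripotency markers summed to 44.8%, led by *SOX2*, with a median of −0.30. None of these 6 sums overlapped between the genotypes. Such separation was common with 2 libraries per group. Of 17300 single genes tested in hILOs, 37.1% were fully separated with WT as the higher genotype. The share separated in the other direction is not given here, so the lack of overlap alone carries little weight.

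Among the endocrine markers, all 18 were tested in hILOs, 4 fell and 2 rose, beside 4.09% lower and 2.70% higher among all genes tested. *INS*, *GCG*, *SST* and *PPY*, which encode the islet hormones, fell from 13005 to 7605, from 2231 to 1266, from 374 to 107 and from 90.8 to 13.6 TPM (means, *n* = 2), while *NEUROD1*, an endocrine transcription factor, and *SCG2*, a granin, rose from 209 to 351 and from 1267 to 2368 TPM. Of the 7 enterochromaffin-like markers, *TPH1*, the first enzyme of serotonin synthesis, *SLC18A1* and *TAC1* fell, from 224 to 140, from 40.8 to 24.6 and from 33.4 to 9.15 TPM, and *ADRA2A* rose from 11.2 to 20.0 TPM. Of 12 progenitor and duct markers tested *SPP1* fell, from 3.71 to 0.611 TPM, and of 3 pluripotency markers tested *SOX2* fell, from 15.2 to 4.25 TPM.

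Hepatocyte markers split, with *TTR*, *APOA2*, *ALB*, *TF* and *HPX* higher and *FGA*, *FGB*, *FGG* and *AHSG* lower out of 14 tested. *TTR* went from 7539 to 18711 TPM and *FGB* from 1378 to 742 TPM. Of 6 mesenchymal markers tested, *POSTN*, *LUM* and *COL1A2* rose, from 2.36 to 17.3, from 0.903 to 4.38 and from 4.31 to 17.3 TPM, and *VIM* fell from 254 to 121 TPM. The calls named for these lists passed limma at adjusted *p* of at most 0.0443. Several were lost in some or all of the fits that left out a library. These were *ADRA2A*, *AHSG*, *COL1A2*, *FGA*, *HPX*, *LUM*, *POSTN*, *PPY*, *SLC18A1*, *SOX2*, *SPP1*, *TF* and *TPH1*.

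In PPs the summed hepatocyte level differed as well, since over all 16 libraries it was 1285 to 1870 CPM in WT and 2140 to 2634 CPM in A5-KO, and 7 of 12 tested members were higher at 0 h, beside 1.57% of 13911 genes. Mesenchymal markers were higher in 4 of 9, and *RFX6* of the endocrine list (4 tested) and *LIN28A* of the pluripotency list (4 tested) were higher as well. Of these calls, *APOB*, *FGA* and *COL1A1* were each lost in 1 of 4 fits that left out a library and *LUM* in 2 (limma adjusted *p* up to 0.0263, 0.0580, 0.0503 and 0.0788, with *APOB* falling under 1.5-fold). *ONECUT1*, 1 of 12 progenitor and duct genes tested, was lower, and none of 3 enterochromaffin-like, 3 myeloid or 2 lymphoid genes passed.

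Genes whose PP levels most resembled the mean of the pair were ranked by Pearson's *r* of log2(CPM + 1) among the 13620 genes tested. With all 16 PP libraries these were *CD70* (*r* = 0.948), *MYH14* (0.936), *GLUD2* (0.935), *SRRM3* (0.933) and *PCDHGB5* (0.932). All 5 were higher in WT PPs, with means of 4.30 to 13.0 CPM in WT and 0.00366 to 0.421 CPM in A5-KO, and these points share library and genotype. Within the 8 WT libraries the leading genes included *TCAF1* (0.892), *AZIN2* (0.873), *COLGALT2* (0.864) and *IFITM1* (0.854), none of them among the former 5. The members resembled each other with *r* = 0.667 over 16 libraries and 0.215 within the 8 WT libraries. With 0 to 5 reads per library, these values describe the libraries and carry little precision.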

How the data were processed

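The authors trimmed reads with fastp, aligned them to GRCh38 (hg38) with HISAT2 2.1.0 and, for hILOs, deposited TPM per gene from StringTie. For PPs the authors deposited CPM per gene after removing ERCC spike-ins; the read counter, annotation and strand setting are not given in the sources used here. CPM steps gave back whole reads within 0.05 read for 100% of values. TPM keeps no depth.

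Symbols came from GENCODE tables (60370 hILO and 60369 PP identifiers matched). Genes with a mean of at least 1 were tested with limma 3.58.1 (trend) on log2(value + 1), Benjamini-Hochberg adjusted *p* below 0.05 and over 1.5-fold; slopes used log2(CPM + 0.1). PP times 1 to 3 h shared 1 fit of all 16 libraries. After seeing the data, edgeR 4.0.16 on recovered reads (at least 10 over 16 libraries) was added. On simulated data, edgeR over the 4 times recovered 200 of 200 genes changed by log2 2, with 6 unchanged genes called among 25492. The changed genes were all drawn from well above 1 CPM and simulated with a fixed spread. Recovery of low genes such as *AOC1* and *MS4A8* was therefore not tested.

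The members and lists were chosen with earlier results of these data known. Named genes were the pair, *ALKBH5*, called neighbours and list members (or the 3 highest), the 5 genes most like the pair, and up to 5 genes near absent in A5-KO hILOs. Some genes that this rule or these lists hold are not reported here. Alternatives are given in the closing section.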

Additional observations from a re-analysis of the deposited data

Results flagged for a closer look

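*LYZ*, lysozyme, was higher in both A5-KO hILO libraries than in both WT hILO libraries (log2 of the ratio of mean TPM + 1, 0.585), whereas in PPs at 0 h it was lower in both A5-KO libraries (74.0 and 77.4 CPM) than in both WT libraries (106 and 110 CPM). The difference between the stages was not tested. Groups of 2 libraries allow no check for outlying samples.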

How the results depend on the processing

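The hILO differences of the pair kept their direction under every alternative run. With a pseudocount of 0.1 they became −8.16 for *TMEM176A* and −6.17 for *TMEM176B* on the log2 scale, and without 1 library they lay between −6.55 and −6.27 and between −5.62 and −5.08. The WT PP reads of the pair were 14 to 19 for *TMEM176A* and 13 to 16 for *TMEM176B* without 1 library.

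Outside PPs at 0 h, replicate numbers gave little sign of pairing (correlations of deviations 0.04 in hILOs and 0.29, −0.02, −0.11 and 0.00 in PPs at 0 to 3 h). In PPs at 0 h, the replicate block raised both counts. With a replicate block, hILO genes lower and higher in A5-KO were 385 and 289 (707 and 467 without it), those of PPs at 0 h 266 and 365 (157 and 218) and genes with a changed slope 0 and 0 (355 and 9).

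Counts over all genes moved by over 1.5 times as follows, lower before higher. Without the filter on low values, hILOs gave 187 and 143, PPs at 0 h 77 and 87, PPs at 1 h 98 and 230, lower genes at 2 h were 175 and slopes 0 and 0. With the 4 libraries of 2 h alone there were 35 and 144. Higher genes at 3 h were 373 with median-of-ratios scaling and 396 with edgeR, against 157. Slopes gave 165 lower with pseudocount 1, 105 and 5 with median-of-ratios scaling, 3 and 51 from 0 and 1 h, and 2739 and 290 from 0 and 3 h. The slope difference of *ZNF775* turned to 0.000131 from 0 and 1 h alone. Median-of-ratios scaling moved the median of all genes at 2 and 3 h, which was −0.11 and −0.13 log2 before it. In none of these cases was the cause tested.

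Without 1 library, hILOs gave 96 to 203 lower and 83 to 118 higher genes, PPs at 0 h 123 to 191 and 127 to 238, at 1 h 61 to 357 and 187 to 310, at 2 h 103 to 1930 and 211 to 373, at 3 h 1702 to 2524 and 108 to 244, and slopes 0 to 1442 and 0 to 62. Of the 32 genes other than the pair and *ALKBH5* named as changed in hILOs, 14 were still called without any 1 library, and 20 under all other settings, which *AHSG*, *COL1A2*, *HLA-DRA*, *HPX*, *INS*, *LUM*, *POSTN*, *PPY*, *PYCARD*, *RARRES2*, *SLC18A1* and *SPP1* were not; none turned its direction. Widening the window to 1000 kb added no gene lower in A5-KO in hILOs. The depth of the PP libraries limits the pair to 0 to 5 reads each, and no counting error can be given for TPM.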
